A study of Mus musculus with 6 samples.

Results

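The genes described here build, fold and clear the proteins of mitochondria. They comprise every row whose symbol begins with Timm or Tomm followed by a digit (26 rows) and 13 named chaperone, protease and prohibitin genes, which makes 39 of the 55291 gene rows deposited. The rule names gene symbols and uses no measured value. Of the 39, 37 passed the filter on low counts. Tomm20l and Timm8a2, close relatives of Tomm20 and Timm8a1, did not, with expected counts of at most 1 in any library.

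The libraries came from RAW264.7, a mouse macrophage line that forms osteoclasts when given RANKL, the cytokine of osteoclast formation. All cultures received RANKL at 50 ng/mL for 4 days, so both groups are differentiating cells. The shCtrl group (n = 3, genotype label WT) carried a control hairpin, and the shUSP8 group (n = 3, genotype label USP8 Knock Down) a hairpin that lowers Usp8, an endosomal deubiquitinase. The study asks how USP8 bears on mitochondria in osteoclasts. The labels do not say how many hairpins were used or whether the cells were clones. The source tissue of the line is labelled ascites and the cell type macrophage. Whether the 3 libraries of a group are independent cultures is not stated; if they are not, the p-values reflect technical spread alone.

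Nearly all mitochondrial proteins are made in the cytosol and enter through the TOM complex of the outer membrane. Proteins with a presequence pass on through the TIM23 complex and are pulled in by the matrix chaperone Hspa9. Carrier proteins are escorted by small Tim chaperones to the TIM22 complex, which inserts them into the inner membrane. In the matrix, the Hspd1-Hspe1 chamber folds the arrivals, and proteases such as Lonp1, ClpXP and the m-AAA and i-AAA enzymes remove what is damaged. Osteoclasts are rich in mitochondria, and the transcripts of matrix chaperones and proteases are widely used as a readout of the mitochondrial unfolded protein response, in which the transcription factor Atf5 takes part.

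Total expected counts, RSEM's estimates of fragments per gene, lay between 19973522 and 20213939 in the 6 libraries. Usp8 itself averaged 135.7 ± 5.86 CPM (counts scaled to library size) with the control hairpin and 33.9 ± 1.68 with shUSP8 (SD, n = 3 each), a log2 fold change of -2.00 (SE 0.06, adjusted p = 1.47e-10). Fragments averaged 368 nt in shUSP8_2 and 301 ± 6.27 nt (SD, 5 libraries) elsewhere; this is set beside the short transcripts below. Osteoclast markers (8 of 8 above the filter) summed to 9934 to 10799 TPM (abundance scaled to transcript length and library) in shCtrl and 9394 to 9736 in shUSP8. Of the 8, 4 fell, against 14.9% of all genes tested. Macrophage markers (5 of 5) summed to 3891 to 4187 TPM and 5639 to 6253 TPM, but without Lyz2, which averaged 939.1 and 3277 TPM, to 2969 to 3192 and 2539 to 2881 TPM. Lyz2 and Adgre1 rose, Csf1r and Cd68 fell, and Ptprc was not called. The lymphocyte genes Cd3e and Ms4a1 were listed at 0 in every library, and so were the osteoblast markers Alpl and Bglap and the neutrophil markers Elane and Ly6g. The neutrophil marker Mpo had 4 counts in shUSP8_2 and none elsewhere. The 5 stromal or osteoblast markers summed to 2.51 to 3.20 TPM in shCtrl and 2.02 to 3.22 TPM in shUSP8, from Runx2, Col1a1 and Col1a2, with Col1a1 highest in shCtrl_3 (5.99 CPM); edgeR called none of them, and DESeq2 1 lower. The part of these marker differences in the results that follow was not tested. In bulk RNA, fewer cells of a type and less RNA per cell cannot be told apart.

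Lower Usp8 came with small changes in this set. Among 37 tested members, edgeR called 4 higher and 3 lower at an adjusted p under 0.05, and none changed 2-fold. Tomm34, Timm50, Afg3l2 and Tomm40 rose by log2 fold changes of 0.18 to 0.29, while Timm8b, Lonp1 and Trap1 fell by 0.38, 0.27 and 0.14. In all, 18.9% of members were called, against 32.8% of the 12440 genes tested. By direction, 10.8% of members rose and 8.11% fell, against 17.8% and 14.9% of all genes. The median log2 fold change of the members was -0.03, and that of all genes tested was 0.00 (-0.0049). In 32 members the 95% interval of the log2 fold change lay inside ± 0.5, or 1.41-fold. The exceptions were Tomm6, Tomm7, Hspe1, Timm8b and Tomm6os. In CPM, 5 members lay wholly above shCtrl in shUSP8 and 5 wholly below, against 24.6% and 23.1% of all genes tested.

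The counts moved with the scaling and with single libraries. With library totals in place of TMM factors, 6 members rose and 2 fell, against 3111 and 1172 of all 12440 genes. Limma on log2(TPM + 1) called 7 higher and 0 lower. At an unadjusted p under 0.05 there were 13 and 1, against 3783 and 952 of all 12440 genes. That TPM scale put the all-gene median at 0.11, and of all genes 19.1% were called higher and 4.02% lower. Without shCtrl_2, 2 members rose and 1 fell, against 1675 and 1239 of 12625 genes tested. Without shCtrl_3, 3 rose and 1 fell, against 1750 and 1293 of 12607 genes. Without shUSP8_1, 4 rose and 9 fell, against 2349 and 2077 of 12579 genes. The added falls were Hspe1, Timm10b, Timm13, Tomm22, Tomm6 and Tomm6os. Without shUSP8_2, 6 rose and 4 fell, against 2126 and 1869 of 12628 genes. Timm29 (0.22), Tomm5 (0.24) and Clpx (-0.18) were added. Effective-length offsets, which give each gene its fragment-dependent length in each library, called the same 4 higher and the same 3 lower, against 12.2% and 9.9% of all genes on that scale.

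**Figure D1:**
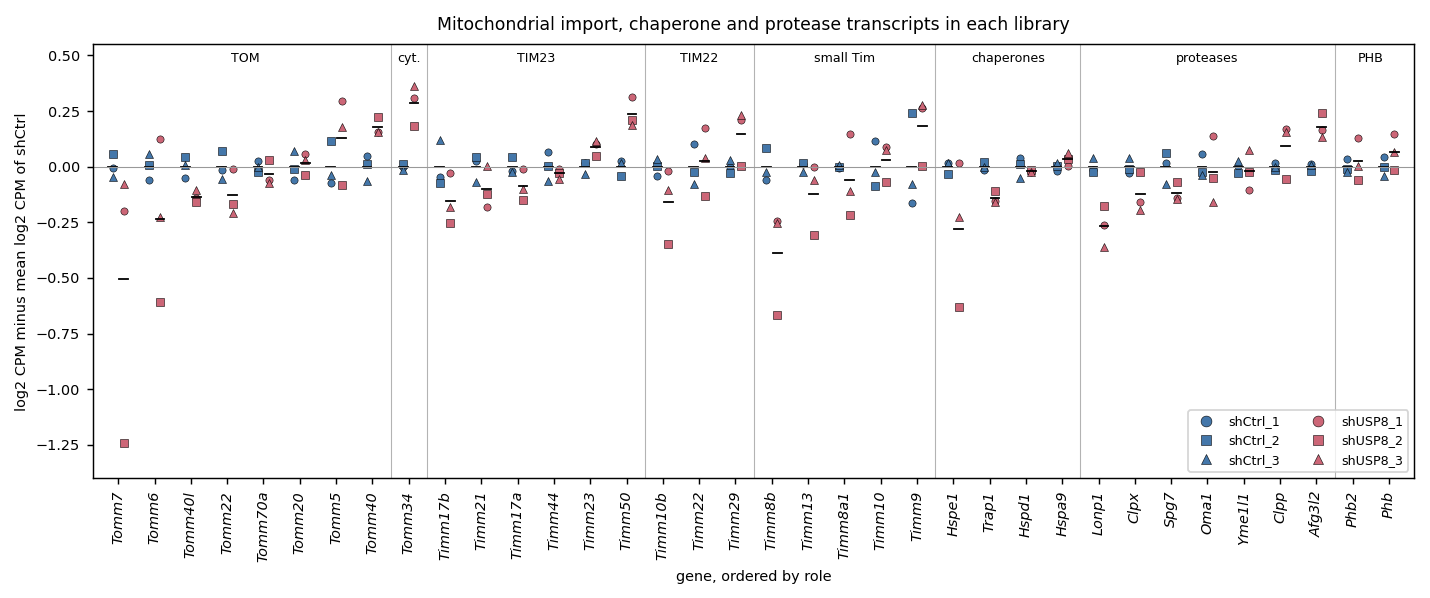
Log2 CPM of 36 members in each library, minus the mean log2 CPM of the 3 shCtrl libraries (y axis), by role (x axis). Blue points are shCtrl, red points are shUSP8, and bars are group means. Most red points lie close to 0, and the square of shUSP8_2 lies far below the other libraries for Tomm7, Tomm6, Hspe1 and Timm8b. Tomm6os, at about 1 CPM, is left out.

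The stretches upstream of 4 called members are shown because these members moved in opposite directions: Tomm40 and Timm50 rose, and Lonp1 and Timm8b fell. They come from RefSeq (GRCm38.p6, the assembly that mm10 names) and lie within the 250 bases before the RefSeq start, with annotated exons left out. Each is written 5′ to 3′ on the strand of its gene, and capitals mark the words searched on both strands: the NRF1 word, GAANNTTC and TTCNNGAA (heat shock element cores, which can overlap each other), TTGCATCA and TTGCATCT (CHOP or ATF4 composite sites), CCAAT (NF-Y box) and TTCCGG (ETS core).
Tomm40, chr7:19715439-19715679, minus strand: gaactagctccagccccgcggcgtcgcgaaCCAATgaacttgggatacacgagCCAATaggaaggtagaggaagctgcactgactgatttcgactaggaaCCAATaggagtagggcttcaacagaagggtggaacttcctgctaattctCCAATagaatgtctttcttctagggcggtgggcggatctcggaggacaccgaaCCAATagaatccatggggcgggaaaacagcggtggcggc
Timm50, chr7:28312073-28312296, minus strand: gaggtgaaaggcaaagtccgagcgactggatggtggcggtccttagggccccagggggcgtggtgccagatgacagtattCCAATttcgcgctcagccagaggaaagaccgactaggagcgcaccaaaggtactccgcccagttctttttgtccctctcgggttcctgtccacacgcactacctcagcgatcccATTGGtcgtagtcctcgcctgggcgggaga
Lonp1, chr17:56626904-56627153, minus strand: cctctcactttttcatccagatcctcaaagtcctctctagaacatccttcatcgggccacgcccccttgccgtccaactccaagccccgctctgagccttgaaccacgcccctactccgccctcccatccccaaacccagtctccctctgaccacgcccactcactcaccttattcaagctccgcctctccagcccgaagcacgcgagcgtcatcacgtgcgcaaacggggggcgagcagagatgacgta
Timm8b, chr9:50603813-50603900, plus strand: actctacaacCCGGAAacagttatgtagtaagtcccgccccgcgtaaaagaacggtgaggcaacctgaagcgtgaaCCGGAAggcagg
The Tomm40 stretch held 5 CCAAT boxes, all on the strand shown. That of Timm50 held 2, the later of which reads ATTGG on this strand. The 88 bases before Timm8b held 2 ETS cores, read on this strand as CCGGAA, and the 250 bases before Lonp1 held none of the 7 words. A match is a run of letters and not a measured binding site.

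Promoters of 300 bases (250 before to 50 after the start) were found for 32 of the 37 tested members, 35 promoters in all; those of Afg3l2, Hspa9, Timm21, Tomm40l and Tomm7 were not matched. The ETS core TTCCGG stood in 45.7% of the members' promoters and in 14.9% of all 32851 promoters of that length. The NRF1 word stood in 17.1%, against 4.6% of all, and TTCNNGAA in 25.7%, against 8.52%. GAANNTTC stood in 8.57%, against 7.86%, and CCAAT in 28.6%, against 37.4%. TTGCATCA and TTGCATCT stood in none of the 35, against 0.895% and 0.804% of all promoters. These shares describe letters in the windows, and no test was made. Windows that overlap can count the same word again, as for Hspd1 with Hspe1 and for the promoters of Tomm34. By gene, the ETS core stood in 15 of 32 members, the NRF1 word in 6 and TTCNNGAA in 9. Of the 6 members with the NRF1 word (Hspd1, Oma1, Phb, Spg7, Timm8b and Tomm20), Timm8b was called and the others were not. CCAAT stood before Tomm40 and Timm50, which rose, and before the uncalled Clpx, Hspd1, Phb, Timm17a, Timm17b, Timm44, Tomm6 and Yme1l1. Tomm34, which also rose, is not among the printed stretches. Its 2 promoters held 0 CCAAT boxes and 1 and 2 ETS cores, the word also found before Timm8b, which fell.

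In the TOM complex, 1 of 8 tested subunits was called, against 32.8% of all genes tested. Tomm40, the beta-barrel pore through which proteins cross the outer membrane (chromosome 7, 19701313 to 19715438, minus strand, GRCm38), was at 142.6, 139.1 and 131.8 CPM in shCtrl and at 153.7, 160.7 and 153.5 CPM in shUSP8. Every shUSP8 library lay above every shCtrl library. The log2 fold change was 0.18 (SE 0.05, adjusted p = 0.0175), and the call was lost without shCtrl_2 (adjusted p = 0.0644) or shCtrl_3 (0.0734). Its relative Tomm40l, with a mean of 25.7 TPM in shCtrl against 122 TPM for Tomm40, was at 23.6, 25.2 and 24.5 CPM in shCtrl and 22.2, 21.9 and 22.8 CPM in shUSP8. The Tomm40l groups did not overlap either, in the other direction, but its value missed the threshold (log2 fold change -0.13, adjusted p = 0.129).

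None of the receptors that first meet incoming proteins was called. Tomm20, the presequence receptor, had a log2 fold change of 0.02 (95% interval -0.10 to 0.13), and Tomm70a, the receptor for carriers and for the cytosolic chaperones that deliver them, -0.03 (-0.14 to 0.07). Tomm22, the central receptor and organiser of the complex, was at -0.13 (-0.27 to 0.02). For Tomm20 the expected counts and the TPM disagreed: CPM was 99.2 in shUSP8_2 and 97.6 to 106.8 in the other libraries, while TPM was 196.3 in shUSP8_2 and 95.3 to 124.8 in the others. The length assigned to Tomm20 in shUSP8_2 was thus shorter, since TPM divides by length. The annotation gives Tomm20 transcripts of 458 and 4902 nt. Offsets for effective length put Tomm20 at 0.38, not called (adjusted p = 0.222).

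The small TOM subunits, which stabilise the pore, included the protein-coding member with the widest spread, Tomm7. It was at 40.9, 42.8 and 39.8 CPM in shCtrl and at 35.9, 17.4 and 39.0 CPM in shUSP8. Its fitted value of -0.42 (SE 0.33, adjusted p = 0.407) rests on shUSP8_2, which lay 1.11 below the mean of the other shUSP8 libraries in log2 CPM and 1.06 below it in log2 TPM. Tomm6 ran from 94.2 to 102.1 CPM in shCtrl and was at 107.1, 64.5 and 84.1 CPM in shUSP8 (-0.21, SE 0.20, adjusted p = 0.49). Tomm5 was at 33.1, 37.7 and 33.9 CPM in shCtrl and at 42.8, 32.9 and 39.4 CPM in shUSP8 (0.14, adjusted p = 0.305). The groups overlapped for Tomm5 and Tomm6, and shUSP8_2 was the lowest library for each of the 3 genes. The 95% interval for Tomm7 ran from -1.32 to 0.47. The longest annotated transcripts of Tomm5, Tomm6 and Tomm7 are 738, 1037 and 1125 nt, and the part of the longer fragments of shUSP8_2 in these values was not tested. Tomm6os, an RNA from the strand opposite Tomm6 that shares 777 bp with it, was at 0.434 to 1.16 CPM (-0.60, adjusted p = 0.188); the counting is not stated to use strand, so its reads and those of Tomm6 may be mixed.

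Tomm34, a cytosolic cochaperone that holds precursors for Hsp70 and Hsp90, had the largest rise of the set. Its levels were 27.5, 27.8 and 27.3 CPM in shCtrl and 34.1, 31.2 and 35.5 CPM in shUSP8. The shCtrl libraries differed by less than 1 CPM, and the shUSP8 libraries all lay above them. The log2 fold change was 0.29 (SE 0.07, adjusted p = 0.00612), and the call held with each library left out in turn. The gene lies on chromosome 2 at 164053540 to 164071169, minus strand.

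In the TIM23 complex, 1 of 6 subunits was called, against 32.8% of all genes tested. Timm50, the receptor that takes presequences from the TOM complex and keeps the channel closed (chromosome 7, 28305516 to 28312072, minus strand), was at 44.9, 42.8 and 44.5 CPM in shCtrl and 54.8, 51.0 and 50.2 CPM in shUSP8. The groups did not overlap, on the TPM scale either. Timm50 rose by a log2 fold change of 0.24 (SE 0.06, adjusted p = 0.00793). This call also held, narrowly, with each library left out (adjusted p of at most 0.0498) and with effective-length offsets (0.0475). Timm23, the channel protein, lay above shCtrl in every shUSP8 library (118.3, 118.4 and 114.3 against 125.8, 120.9 and 126.9 CPM), but its value of 0.09 missed the threshold (SE 0.05, adjusted p = 0.174). It passed with library totals (0.16, adjusted p = 0.0255) and on log2(TPM + 1) (0.24, adjusted p = 0.0323). Timm44, which tethers Hspa9 to the channel, was at -0.03 (95% interval -0.14 to 0.08), and Timm21, which links the complex to the respiratory chain, at -0.10 (-0.28 to 0.08).

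Timm17a and Timm17b are alternative forms of the channel's partner subunit. Timm17a was the main form, at 75.4, 78.7 and 75.0 CPM in shCtrl and 75.7, 68.8 and 71.2 CPM in shUSP8 (log2 fold change -0.09, adjusted p = 0.245). Timm17b was at 18.8, 18.5 and 21.1 CPM in shCtrl and 19.1, 16.3 and 17.1 CPM in shUSP8 (-0.15, adjusted p = 0.189). Per length, the ratio of Timm17a to Timm17b was 10.1 ± 1.68 for shCtrl against 10.0 ± 0.732 for shUSP8 (TPM ratio, SD of 3 libraries), with overlapping groups.

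No subunit of the TIM22 complex passed the test, against 32.8% of all genes that did. Timm22, its channel, was at 0.03 (95% interval -0.17 to 0.23), Timm29, which holds the complex together and docks it to TOM, at 0.15 (0.00 to 0.30, adjusted p = 0.11), and Timm10b at -0.15 (-0.33 to 0.03). Timm29 was at 44.2 to 45.9 CPM in shCtrl and at 52.0, 45.1 and 53.0 CPM in shUSP8, where shUSP8_2 alone fell within the shCtrl range. Timm10b shares 3086 bp with the annotated gene Gm45799 on the same strand, so reads may have been split between them.

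Of 5 small Tim chaperones tested, Timm8b fell and the others missed the threshold, against 14.9% of all genes lower. Timm8b, a partner of Timm13 in the intermembrane space (chromosome 9, 50603910 to 50605320, plus strand), was at 33.1, 36.5 and 34.0 CPM in shCtrl and 29.1, 21.7 and 28.9 CPM in shUSP8. Every shUSP8 library was below every shCtrl library, and shUSP8_2 was the lowest. The log2 fold change was -0.38 (SE 0.11, adjusted p = 0.0213), and -0.27 with effective-length offsets (adjusted p = 0.0237). The call was lost without shCtrl_2 (adjusted p = 0.0844) or shCtrl_3 (0.0721). The only annotated transcript is 518 nt, and on the TPM scale the groups overlapped, at 179.2, 188.5 and 166.0 against 153.1, 162.9 and 166.9 TPM (log2(TPM + 1) difference -0.14, adjusted p = 0.157 in limma).

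The stretch printed for Timm8b begins next to an exon of Sdhd, a membrane subunit of complex II on the other strand. Sdhd, looked up after the value of Timm8b was seen, averaged 261.2 ± 6.50 CPM in shCtrl and 229.5 ± 4.76 in shUSP8, a change of -0.19 (log2, SE 0.05, adjusted p = 0.0101). That call was lost without shCtrl_1 (adjusted p = 0.055).

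Among the other small Tims, Timm13 was at -0.12, Timm8a1 at -0.05, Timm10 at 0.03 and Timm9 at 0.18, with adjusted p-values of 0.242 to 0.806. Timm9 and Timm10 form the chaperone ring that carries hydrophobic precursors. Timm9 was the least abundant tested subunit by CPM after Tomm6os, at 10.3, 13.6 and 10.95 CPM in shCtrl and 13.9, 11.6 and 14.0 CPM in shUSP8, and its groups overlapped. On log2(TPM + 1) Timm9 was called higher (0.39, adjusted p = 0.0314).

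Hspe1, Hspd1 and Hspa9 were the most abundant members per length. Of the 4 matrix chaperones Trap1 alone was called, as lower, against 14.9% of all genes tested. In shCtrl, Hspe1 stood first at 366.6 ± 16.5 TPM, Hspd1 second at 322.4 ± 20.5 TPM and then Hspa9 at 321.5 ± 6.46 TPM (SD, n = 3). Hspd1 and Hspa9 differed by less than their spread. In shUSP8 the means were 343.2 ± 53.1, 346.2 ± 10.5 and 359.5 ± 18.7 TPM.

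Hspd1, the HSP60 chaperonin, was at 599.6, 588.8 and 563.6 CPM in shCtrl and 575.1, 577.2 and 575.0 CPM in shUSP8. The shUSP8 libraries fell within the shCtrl range, and the log2 fold change was -0.02 (95% interval -0.13 to 0.09, adjusted p = 0.787). Hspa9, the mitochondrial HSP70 that drives import, was at 776.0, 789.0 and 797.0 CPM against 788.0, 807.1 and 822.3 CPM (0.03, interval -0.07 to 0.14, adjusted p = 0.643). The intervals of Tomm40 and Afg3l2, which were called higher, each ran from 0.07 to 0.29 and overlapped those of Hspd1 and Hspa9. These genes were not tested against each other.

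Hspe1, the HSP10 lid of the Hspd1 chamber, was at 156.9, 151.4 and 156.7 CPM in shCtrl and at 157.0, 100.1 and 132.5 CPM in shUSP8. Only shUSP8_2 and shUSP8_3 lay below the shCtrl range, and the value of -0.26 (SE 0.17) missed the threshold (adjusted p = 0.319). It passed without shUSP8_1 (-0.41, adjusted p = 0.0421). Hspd1 and Hspe1 lie head to head on chromosome 1 and overlap by 112 bp. The ratio of Hspd1 to Hspe1 in TPM was 0.886, 0.904 and 0.848 in shCtrl and 0.867, 1.197 and 1.01 in shUSP8, so the groups overlapped. Both genes had expected counts that are not whole numbers in all 6 libraries, as RSEM gives for reads that match several genes. The same held for Phb, Timm10b, Timm23, Timm8a1, Tomm40l, Tomm6 and Tomm6os, so 9 members are less certain in this respect.

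Trap1, the mitochondrial relative of HSP90, fell from 170.7, 174.9 and 172.2 CPM in shCtrl to 155.1, 160.1 and 154.5 CPM in shUSP8. The groups did not overlap in CPM, but the fall was small (log2 fold change -0.14, SE 0.05, adjusted p = 0.0353). Leaving out shCtrl_1 (adjusted p = 0.0805), shCtrl_2 (0.139), shCtrl_3 (0.0708) or shUSP8_3 (0.118) ended it. It was also lost with the replicate block (0.0754), with no filter on low counts (0.0572), with library totals (-0.07, adjusted p = 0.327) and on log2(TPM + 1) (-0.02, adjusted p = 0.824). Trap1 lies on chromosome 16 at 4039971 to 4077827, minus strand.

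Of 7 proteases, Lonp1 fell, Afg3l2 rose and 5 missed the threshold, against 14.9% lower and 17.8% higher of all genes tested. Lonp1, the matrix protease that degrades oxidised proteins and binds mitochondrial DNA (chromosome 17, 56614297 to 56626887, minus strand), was at 513.4, 511.2 and 532.6 CPM in shCtrl and 432.7, 458.8 and 403.8 CPM in shUSP8. All shUSP8 libraries lay below shCtrl, in CPM and in TPM. The log2 fold change was -0.27 (SE 0.06, adjusted p = 0.0035), and the call held with each library left out. With effective-length offsets it was -0.27 (adjusted p = 0.0106). On log2(TPM + 1) it was -0.14 and missed the threshold (adjusted p = 0.099), which is -0.25 relative to the median of all genes on that scale.

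Afg3l2, the core subunit of the m-AAA protease of the inner membrane (chromosome 18, 67404764 to 67449172, minus strand), rose from 197.8, 193.7 and 197.3 CPM in shCtrl to 219.9, 231.7 and 215.3 CPM in shUSP8. Every shUSP8 library was higher, and the log2 fold change was 0.18 (SE 0.05, adjusted p = 0.0143). The call was lost without shCtrl_2 (adjusted p = 0.0774). Its partner Spg7, paraplegin, which joins Afg3l2 in the mixed form of the enzyme, was at 79.4, 82.1 and 74.4 CPM against 71.3, 75.0 and 71.1 CPM (-0.12, SE 0.05, adjusted p = 0.119). Spg7 lies wholly within the annotated gene Gm20388 on the same strand. Its expected counts were whole numbers in every library, so they show no fractional sharing of reads with that gene.

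The m-AAA subunits Afg3l2 and Spg7 differed in their ratio between the groups. Their relative Afg3l1, named after its value was seen, averaged 101.0 CPM in shCtrl and 98.0 in shUSP8 and was not called (log2 fold change -0.04, adjusted p = 0.553). The ratio of Afg3l2 to Spg7 in TPM was 1.52, 1.47 and 1.63 in shCtrl and 2.05, 1.95 and 1.90 in shUSP8. The means were 1.54 ± 0.0823 and 1.97 ± 0.0751 (SD, n = 3 per group). The lowest shUSP8 ratio was above the highest shCtrl ratio. No test was made on the ratios.

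ClpXP consists of the unfoldase Clpx and the peptidase Clpp. Clpx was at 78.0, 78.8 and 81.5 CPM in shCtrl and 71.2, 78.2 and 69.4 CPM in shUSP8 (log2 fold change -0.12, adjusted p = 0.12). Clpp was at 26.1, 25.5 and 25.8 CPM in shCtrl and 29.0, 24.9 and 28.8 CPM in shUSP8 (0.09, adjusted p = 0.354). Neither was called, and their groups overlapped. The TPM ratio of Clpx to Clpp did not overlap between the groups: 0.781, 0.822 and 0.844 against 0.657, 0.774 and 0.642. Yme1l1, the i-AAA protease that faces the intermembrane space, was at -0.02 (95% interval -0.14 to 0.11), and Oma1, the stress-activated protease that cleaves Opa1 and Dele1, at -0.02 (-0.19 to 0.16).

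**Figure D2:**
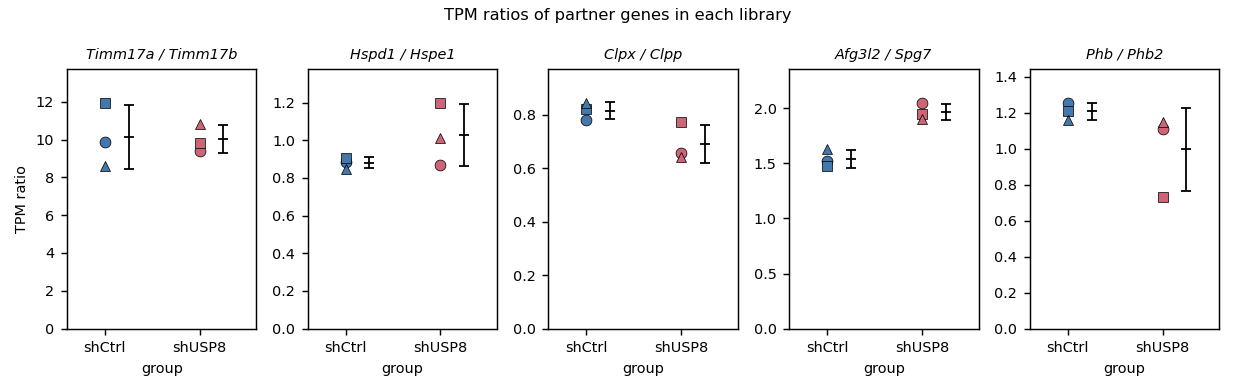
Ratios of TPM for 5 pairs of partner genes (y axes, from 0) in each library of the shCtrl and shUSP8 groups (x axis). Bars are mean and SD of 3 libraries. The Afg3l2 to Spg7 ratio is 1.47 to 1.63 in shCtrl and 1.90 to 2.05 in shUSP8, and the low point of Phb to Phb2 is shUSP8_2.

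The prohibitins Phb and Phb2 form rings in the inner membrane that scaffold the m-AAA protease. Phb was at 181.8, 176.4 and 171.6 CPM in shCtrl and 195.2, 174.8 and 185.1 CPM in shUSP8 (log2 fold change 0.07, adjusted p = 0.373). Phb2 was at 244.5, 237.1 and 234.7 CPM in shCtrl and 261.1, 229.3 and 239.0 CPM in shUSP8 (0.03, adjusted p = 0.76). In CPM their groups overlapped. The TPM ratio of Phb to Phb2 was 1.25, 1.21 and 1.16 in shCtrl and 1.11, 0.731 and 1.147 in shUSP8. All shUSP8 ratios lay below the lowest shCtrl ratio, shUSP8_2 far below. In that library Phb was at 202.5 TPM, against 283.3 to 342.2 TPM in the others, while its CPM was within their range. With effective-length offsets the Phb value was -0.24 and was not called (adjusted p = 0.408).

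**Figure D3:**
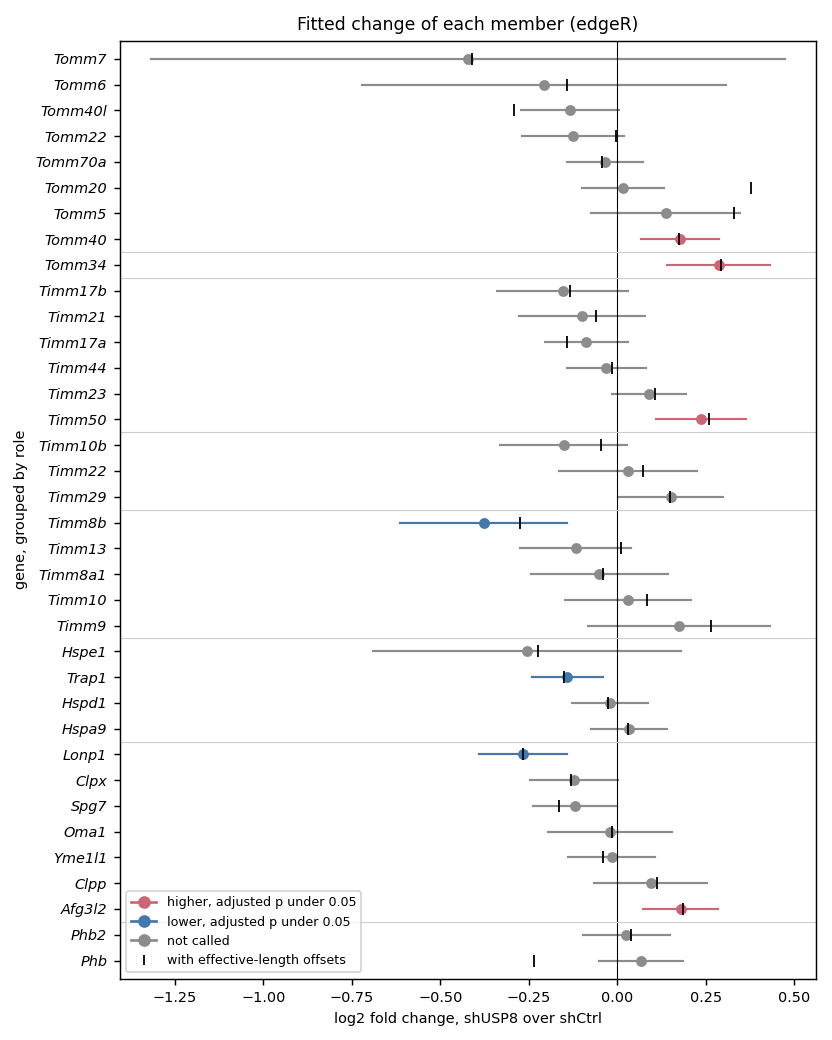
Log2 fold change of 36 members, shUSP8 over shCtrl, from edgeR (x axis), with 95% intervals as lines, grouped by role (y axis). Red is higher, blue lower and grey not called; black ticks are the values with effective-length offsets. The 4 red and 3 blue points stand between -0.38 and 0.29, and the ticks of Tomm20 and Phb lie away from their points.

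The stress factor Atf5 had the largest change among the pathway lists. Atf5, a transcription factor of the mitochondrial unfolded protein response, was at 13.5, 16.8 and 20.7 CPM in shCtrl and 58.3, 38.8 and 62.0 CPM in shUSP8. It rose 3.12-fold (log2 fold change 1.64, SE 0.26, adjusted p = 0.00914), every shUSP8 library lay above every shCtrl library, and the call held with each library left out (adjusted p of at most 0.0472). Of the chaperones and proteases commonly used as its readouts, Hspd1, Hspe1 and Hspa9 had log2 fold changes of -0.02, -0.26 and 0.03 and Clpp of 0.09, none of them called, while Lonp1 fell and the protease Afg3l2 rose. Of 11 genes of stress relay and outer-membrane extraction tested, Atf5 alone passed the threshold in the edgeR fit, against 17.8% of all genes higher and 14.9% lower. On log2(TPM + 1), 3 of the 11 were called higher, against 19.1% of all genes, and with offsets 1 was called lower, against 9.9%. The latter was Dele1, the messenger that carries mitochondrial stress to the cytosol (-0.34, adjusted p = 0.00582; -0.15, adjusted p = 0.054 without offsets), named after its value was seen.

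The remaining stress factors are named here after their values were seen. Atf4, the factor of the integrated stress response, was at 204.4, 227.8 and 277.8 CPM in shCtrl and 226.5, 216.4 and 226.7 CPM in shUSP8 (log2 fold change -0.08, adjusted p = 0.584). Its partner Ddit3, known as CHOP, ran from 16.9 to 53.2 CPM in shCtrl and from 19.0 to 23.7 CPM in shUSP8 (-0.55, 95% interval -1.88 to 0.78, adjusted p = 0.464). Trib3, a target of both, ran from 9.32 to 40.6 CPM in shCtrl and from 20.03 to 22.4 CPM in shUSP8 (-0.19, interval -1.74 to 1.35, adjusted p = 0.833). In all 3, shCtrl_3 was the highest library and the shUSP8 values lay inside the shCtrl range. Without shCtrl_3 the values were 0.05, 0.01 and 0.40, none of them called.

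**Figure D4:**
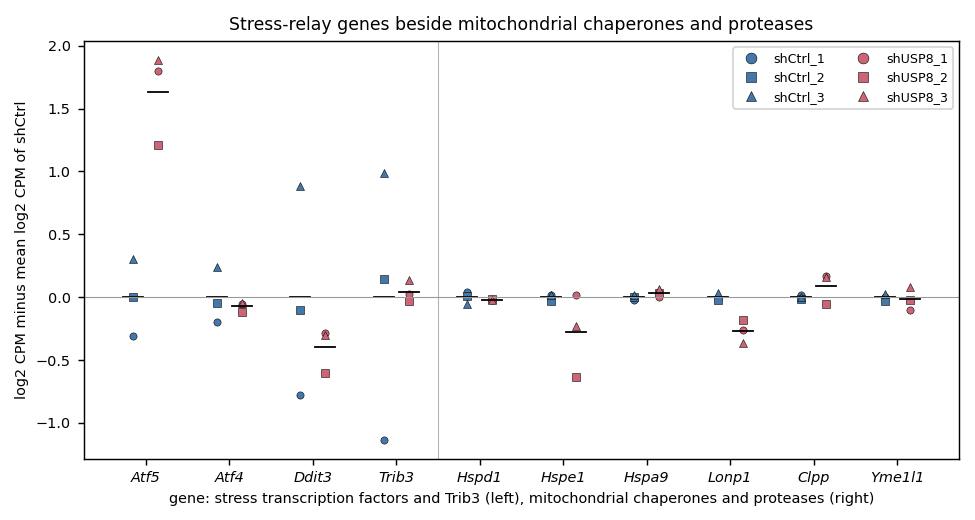
Log2 CPM minus the mean log2 CPM of shCtrl (y axis) for 4 stress-relay genes and 6 mitochondrial chaperone and protease genes (x axis) in each library; bars are group means. Atf5 lies above every shCtrl library in all shUSP8 libraries, while Ddit3 and Trib3 spread widely within shCtrl. Hspd1 and Hspa9 lie near 0. Hspe1 lies below the shCtrl libraries in shUSP8_2 and shUSP8_3, and Lonp1 in all shUSP8 libraries.

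Of 4 SAM complex and metaxin genes, which insert barrel proteins, none was called at adjusted p under 0.05. At an unadjusted p under 0.05 the count was also 0 in edgeR and 0 in DESeq2. Limma on log2(TPM + 1) called none either, with 2 higher at an unadjusted p under 0.05, against 3783 of all 12440 genes. Of 8 import motor and presequence translocase partners, 1 rose and 1 fell (of all genes, 17.8% and 14.9%). These were Grpel2, a nucleotide exchange factor of Hspa9 (0.22, SE 0.07, adjusted p = 0.0226), and Pam16, a regulator of the motor (-0.30, SE 0.09, adjusted p = 0.0203). Both calls were lost with DESeq2 (adjusted p = 0.143 and 0.0569) and without shCtrl_2 (0.0822 and 0.0757) or shCtrl_3 (0.0807 and 0.0685). Grpel2 also lost its call without shUSP8_1 (adjusted p = 0.0585), and Pam16 without shUSP8_2 (0.0526). Of 6 genes of intermembrane-space folding and inner-membrane insertion, 1 rose: Chchd4, the oxidoreductase that folds small Tims, from 38.8 ± 3.12 to 47.7 ± 3.66 CPM (0.30, SE 0.08, adjusted p = 0.0109). The Chchd4 call was lost without shCtrl_3 (adjusted p = 0.0566) and with effective-length offsets (0.0531).

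The peptidases that cut presequences after import included 3 of 7 that fell and 0 that rose, with a median of -0.15, against 14.9% and 17.8% of all genes. DESeq2 called 2 lower, effective-length offsets 1 (9.9% of all genes) and log2(TPM + 1) 0 (4.02% of all genes), with a median of -0.04. Pmpcb, the catalytic subunit of the matrix processing peptidase, fell by 0.25 on the log2 scale (SE 0.05, adjusted p = 0.00151), from a mean of 104.9 ± 1.18 CPM to 88.4 ± 1.09. Its partner Pmpca fell by 0.16 (SE 0.05, adjusted p = 0.0221), a call that offsets (0.053) and the replicate block (0.0551) ended. Leaving out shCtrl_1 (adjusted p = 0.0822), shCtrl_2 (0.0956) or shUSP8_3 (0.0681) ended it too. No peptidase of this list was higher, and the count of higher members at an unadjusted p under 0.05 was also 0, in edgeR and in DESeq2.

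Of 8 genes that comprise other proteases and the disaggregase Clpb, 1 fell (2 in DESeq2): Lactb, a filament-forming serine protease (-0.22, SE 0.05, adjusted p = 0.00687). For this list and the next 2, the shares of all genes were 17.8% higher and 14.9% lower. Of 8 scaffold and membrane partners, 1 rose and 2 fell (1 and 3 in DESeq2). Atad3a, an ATPase of the inner membrane at nucleoids, went from 85.2 ± 5.23 to 102.8 ± 2.29 CPM (0.27, SE 0.06, adjusted p = 0.00276). The twin-CHCH proteins Chchd2 and Chchd10 fell by 0.21 (SE 0.05, adjusted p = 0.0043) and 0.20 (SE 0.06, adjusted p = 0.0303). Offsets ended the Chchd10 call (adjusted p = 0.0762), and so did leaving out shCtrl_2 (0.0954), shCtrl_3 (0.11), shUSP8_2 (0.0776) or shUSP8_3 (0.0647). Of 7 MICOS genes, which shape cristae, 1 fell: Chchd3 (-0.16, SE 0.05, adjusted p = 0.0209). DESeq2 called 3 of the 7 lower, against 1470 of the 22000 genes in its run. That run also held genes under the edgeR filter on low counts, so its share is not comparable with the 14.9% above. With offsets 1 was lower, against 9.9% of all genes: Micos13 (-0.30, adjusted p = 0.0409), named after its value was seen. On log2(TPM + 1), 0 were lower and 1 was higher, against 4.02% and 19.1% of all genes. The Chchd3 call was lost with offsets (0.0811) and without shCtrl_1 (0.0514), shCtrl_2 (0.0849), shCtrl_3 (0.0595) or shUSP8_3 (0.0967).

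The cytosolic and endoplasmic reticulum chaperones were mixed, with 3 of 12 tested higher and 2 lower (median 0.11), against 17.8% and 14.9% of all genes. DESeq2 called 2 higher and 2 lower, effective-length offsets 1 and 1, and log2(TPM + 1) 4 and 0. Of all genes, offsets called 12.2% higher and 9.9% lower, and log2(TPM + 1) 19.1% and 4.02%. Hsph1, an HSP110 exchange factor, rose by 0.29 on the log2 scale (SE 0.06, adjusted p = 0.00437), from a mean of 70.9 ± 6.44 CPM to 86.9 ± 2.12. Ahsa1, an activator of HSP90, rose by 0.23 (SE 0.07, adjusted p = 0.0189). The HSP90 genes Hsp90aa1 and Hsp90ab1, which deliver precursors to Tomm70a, fell by 0.25 (SE 0.07, adjusted p = 0.0155) and 0.17 (SE 0.05, adjusted p = 0.0232). Ahsa1 and Hsp90ab1 lost their calls with effective-length offsets (adjusted p = 0.0501 and 0.0533). Without shCtrl_2 or shUSP8_3 both were lost too, Ahsa1 also without shCtrl_3, Hsp90ab1 also without shCtrl_1, and Hsp90aa1 without shCtrl_1 or shCtrl_3 (adjusted p of 0.0590 to 0.0921 for all of these). For comparison, 2 of 78 mitochondrial ribosomal protein genes rose and 12 fell, with a median of -0.03, against 17.8% and 14.9% of all genes. The direction depended on the scale: 0 rose and 9 fell in DESeq2, and 1 and 6 with offsets. On log2(TPM + 1), 4 rose and 2 fell, and the median was 0.12, against 0.11 for all genes. The members and these genes were not tested against each other.

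The lower calls named from these lists depended on the scale. Pam16, Pmpcb, Pmpca, Lactb, Chchd2, Chchd10, Chchd3, Hsp90aa1 and Hsp90ab1, and also Sdhd, lost their calls in limma on log2(TPM + 1), with adjusted p-values of 0.0775 to 0.875. With library totals, Pmpcb and Chchd2 held and the rest were lost (adjusted p of 0.0608 to 0.235). The higher calls of Atf5, Atad3a and Hsph1 held under every alternative run.

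Summed per length, the transcripts of the 39 members made up 4216, 4097 and 3858 TPM in shCtrl and 4318, 4237 and 4418 TPM in shUSP8. The TOM genes summed to 804.8 ± 26.5 and 922.0 ± 46.0 TPM (SD, n = 3 per group), the TIM23 genes to 421.2 ± 24.9 and 468.4 ± 24.1 TPM and the 7 proteases to 460.8 ± 14.2 and 469.8 ± 8.40 TPM. The sums of all members, of TOM and of TIM23 did not overlap between groups. Those of the proteases, matrix chaperones, TIM22 genes, small Tims and prohibitins did. The share of all genes without overlap in TPM was not counted. These are levels on the scale on which the median gene also lay 0.11 (log2) higher in shUSP8. In shUSP8_2, the TPM of Tomm20, Tomm5 and Timm13 was 0.72, 0.48 and 0.50 (log2) above the mean of the other shUSP8 libraries while their CPM was 0.08, 0.32 and 0.28 below it.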

How the data were processed

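Paired reads of total RNA came from the DNBSEQ platform, per the labels' protocols. The deposited values are expected counts, the fragment estimates per gene that RSEM gives, and 7.16% are not whole. The deposited TPM values are scaled by effective length and library. RSEM, DESeq2 1.28.1 and mm10 are named in the submitters' processing notes without roles; the aligner and annotation are not given in the sources used here. The 3 columns headed WT were matched by genotype label and number to the shCtrl samples, and the 3 headed KO to the shUSP8 samples, as knock down of USP8 is the only other genotype; Usp8 levels check the groups and cannot check the numbers. Gene positions came from GENCODE M21 (GRCm38) by transcript identifier (98.7% found).

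Counts were rounded, filtered (filterByExpr, minimum count 10, minimum total 15) and fitted over all genes by edgeR (4.0.16, under R 4.3.3), using TMM factors and a robust quasi-likelihood F test, Benjamini-Hochberg adjusted. SE is the absolute log2 fold change over the square root of F. CPM uses TMM factors. Alternatives were RLE factors, library totals, no filter, DESeq2 1.42.0, limma 3.58.1 on log2(TPM + 1) and log2(TPM + 0.1), effective-length offsets, the replicate number as a block, and leaving out single libraries. The fit was tested on simulated data.

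The members, gene lists and tests were chosen with earlier results of these data known. Every member is named, with full values for the called members and the partner pairs; from the other lists, up to 2 called genes per direction by smallest p. Mean fragment length came from a line through expected count over TPM against transcript length in genes with 1 transcript, with far points left out. The chi-square per gene between libraries of a group was 2.29 to 18.5, so no pair was counted as 1 library. Figures used Python 3.11.15 and matplotlib 3.10.9.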

Additional observations from a re-analysis of the deposited data

How the results depend on the processing

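The members called lower numbered 3, and 0 in limma on log2(TPM + 1) and log2(TPM + 0.1), where 7 rather than 4 were higher. At an unadjusted p under 0.05, 1 was lower on either scale, against 952 and 950 of all 12440 genes. DESeq2 called 3 lower. Leaving out 1 library gave 1 to 9 lower and 2 to 6 higher. It was 1 lower without shCtrl_2 or shCtrl_3, 9 lower without shUSP8_1, and 2 higher without shCtrl_2. For all genes, the same runs gave 1239 to 2077 lower and 1675 to 2349 higher, of 12579 to 12646 tested. The median log2 fold change was -0.03, and 0.0422 with library totals, 0.10 on both TPM scales and -0.0463 to -0.0161 with a library left out. RLE factors and DESeq2 changed no member's call. Of all genes called, 54.4% were higher, 72.6% with library totals and 82.6% on log2(TPM + 1). The cause of these shifts was not tested.

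Values that changed sign were uncalled in the main test and in the alternative. With library totals, log2(TPM + 1) and log2(TPM + 0.1) in turn, the values were Hspd1 at 0.0531, 0.10 and 0.10, Oma1 at 0.0538, 0.10 and 0.11, Timm44 at 0.0422, 0.12 and 0.12, Timm8a1 at 0.0227, 0.0777 and 0.0807, Tomm70a at 0.0398, 0.0853 and 0.087, Yme1l1 at 0.0583, 0.0854 and 0.0885. On the 2 TPM scales alone they were Phb at -0.14 and -0.14, Timm10b at 0.0743 and 0.0749, Timm13 at 0.12 and 0.13, Timm21 at 0.0659 and 0.0682, Tomm22 at 0.12 and 0.13, Atf4 at 0.0634 and 0.0637, Trib3 at 0.17 and 0.20. With effective-length offsets, Phb was at -0.24 and Timm13 at 0.0103. With 1 library left out, the ranges were Oma1 from -0.10 to 0.0482, Phb2 from -0.0279 to 0.066, Timm10 from -0.0136 to 0.0895, Timm22 from -0.0463 to 0.11, Timm44 from -0.0645 to 0.0009, Timm8a1 from -0.16 to 0.025, Tomm20 from -0.0147 to 0.0507, Yme1l1 from -0.062 to 0.0268, Atf4 from -0.18 to 0.0458, Ddit3 from -0.86 to 0.0123, Trib3 from -0.58 to 0.40.

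With the replicate number as a block, 4 members were higher and 2 lower, and Trap1 was the only member to lose its call. The numbers do not show a pairing: deviations of same-numbered libraries correlated at -0.01, 0.08 and -0.05. Depth limits Tomm6os, which had 9 to 23 counts a library.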
